A study of Mus musculus with 48 samples.

Results

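Cytosolic ribosomal protein genes were taken as the rows of the deposited gene table whose mouse symbol begins with Rpl or Rps followed by a number, p or a, without the Rps6k kinases and without symbols that contain -ps. The rule found 84 of the 14251 genes in the table, 49 named for the large and 35 for the small subunit, and all 84 passed the filter on low counts. By their names they encode ribosomal proteins or close paralogs, and the exceptions are Rps19bp1, which encodes a partner of the small-subunit protein RPS19, the retrogenes Rps23rg1 and Rps27rt, and Rpl7l1, a relative of Rpl7. RNA of whole liver was profiled with QuantSeq, which counts transcripts from their 3′ ends, in 48 male C57BL6J mice. The drinking water held 1% ethanol, the vehicle, or corticosterone at 100 ug/ml for 2 weeks, and the food was a control diet or the same food with 571 mg/kg of atglistatin, which blocks adipose triglyceride lipase, the enzyme that begins the breakdown of stored fat. There were 10 vehicle libraries and 14 corticosterone libraries on each diet, with 7449100 to 21176000 counts each. No age is used here, and both drugs reach the whole animal, so an effect on liver cells and one relayed from fat, muscle or the pancreas cannot be told apart. Each library has its own glucose and insulin label and is taken as 1 mouse, and 9 mice of the corticosterone control-diet group but 1 of the corticosterone atglistatin group are labelled diabetic.

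A cytosolic ribosome is built from a small subunit, which reads the mRNA, and a large subunit, which joins amino acids, and each holds 1 copy of most of its proteins. The mRNAs of these proteins are abundant and stable, and begin with a run of pyrimidines (the 5′ terminal oligopyrimidine tract, or TOP) through which the kinase complex mTORC1, an effector of insulin, controls their translation. Some of the proteins also act apart from ribosomes, such as RPL5 and RPL11, which bind the p53 regulator MDM2. The counts here measure mRNA, not ribosomes or translation.

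The starts of 6 genes whose values are given below are shown, from both subunits, as examples of genes called higher (Rps19, Rps6, Rpl15) and lower (Rpl38) and as a paralog pair (Rps27 and Rps27l). Each line runs 5′ to 3′ from 30 bases before the annotated start to 20 bases from it onward, and capitals mark the longest run of C or T within 10 bases before and 20 bases after the start. The sequences and coordinates are from RefSeq on GRCm38.p6, and for Rps27l and Rps19, with 2 and 3 listed starts, the first entry is shown. The lines are Rps27 at chr3:90213629-90213678 (minus strand), Rps27l at chr9:66946056-66946105 (plus), Rps19 at chr7:24884562-24884611 (plus), Rps6 at chr4:86857348-86857397 (minus), Rpl15 at chr14:18270967-18271016 (minus) and Rpl38 at chr11:114668550-114668599 (plus).
Rps27: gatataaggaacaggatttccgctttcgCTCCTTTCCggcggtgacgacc
Rps27l: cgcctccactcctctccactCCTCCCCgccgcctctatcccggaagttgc
Rps19: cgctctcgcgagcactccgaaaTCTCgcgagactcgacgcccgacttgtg
Rps6: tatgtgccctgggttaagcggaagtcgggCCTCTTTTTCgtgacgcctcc
Rpl15: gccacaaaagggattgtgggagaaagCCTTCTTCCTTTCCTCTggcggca
Rpl38: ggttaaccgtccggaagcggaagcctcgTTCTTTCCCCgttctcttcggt
Within that window the run is 9 bases long in Rps27, 7 in Rps27l (it begins 2 bases before the window, for 9 in all), 4 in Rps19, 10 in Rps6, 17 in Rpl15 and 10 in Rpl38. Of the 84 genes, 64 had a promoter entry. A run of 8 or more C or T in that window was present in 22 of these (34.4%), 12 of 37 large-subunit and 10 of 27 small-subunit genes, against 11.2% of all 27025 promoters. In the 300 bases from 250 before to 50 after the start, the letters CGGAAG stood on either strand in 43 of 64 (67.2%, against 17.2% of all promoters) and CTTTCC in 31 of 64 (48.4%, against 26.3%). These matches describe the letters in the windows and not binding, and annotated starts can be some bases off.

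Levels are given as CPM, counts scaled to a common library total with edgeR's TMM factors. Mean levels ran from 1.42 CPM for Rps23rg1 to 889 CPM for Rplp1, with a median of 195.5, and 62 of the 84 genes had at least 100 CPM. They lie on 19 chromosomes. For 38 of them the table also has rows for pseudogenes named after them (54 rows), and reads of near-identical copies cannot be assigned with certainty, so levels are compared between groups and not between genes. Rps27 and Rps27rt, Rpl36a and Rpl36al, and Rps23 and Rps23rg1 are such pairs, and values of Rps6, Rps13, Rpl17, Rpl21 and other genes with several copies are uncertain for the same reason.

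Of the 48 libraries, 9 stand apart, with 174834 to 251887 CPM of mitochondrially encoded transcripts where the other 39 have at most 163415. These are vehicle control-diet library 02, vehicle atglistatin 05 and 07, corticosterone control-diet 29, 35 and 50, and corticosterone atglistatin 13, 24 and 26. The same 9 have the highest values (at least 0.723, against at most 0.689) of an index that subtracts the mean log2 level of 1189 genes with long transcripts (3000 bases or more) from that of 599 genes with short ones (800 bases or fewer), none of them a ribosomal protein gene. Their summed ribosomal protein level is 20573 to 27344 CPM, and 1 other library lies above 20573. Counts of ribosomal protein genes are given over all 48 libraries and, for the group comparisons and the slope within groups, also without these 9 and with the length index as a covariate. Both alternatives were chosen after the data were seen, and leaving out the 9 removes libraries high in the measure described here from every group.

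Summed over the genes, the median level of ribosomal protein transcripts in CPM was lowest in corticosterone mice on the control diet and highest in corticosterone mice on atglistatin. By mean, which group is highest depends on the scaling. As a percentage of raw counts the mean was 1.95 and 2.116 in the vehicle groups on the control diet and on atglistatin, and 1.674 and 2.078 with corticosterone. The medians of that percentage were 1.89, 1.995, 1.675 and 2.035 in the same order, so by median corticosterone mice on atglistatin were highest by both scalings. The large-subunit sum had a lowest, median and highest value of 9379, 9790 and 11857 CPM with vehicle on the control diet, 9101, 9736 and 12902 with vehicle on atglistatin, 7656, 9384.5 and 13282 with corticosterone on the control diet, and 9256, 10448 and 13718 with corticosterone on atglistatin. The small-subunit sum was 8610, 8809 and 11597, then 8653, 8901.5 and 12920, then 6822, 8082 and 13021, and 8233, 9375 and 13627 CPM in the same order. All 4 groups overlap. Without the 9 libraries, the sum of both subunits was 18082 to 19692 CPM and 17754 to 18806 CPM in the vehicle groups. It was 14513 to 18460 with corticosterone on the control diet, against 17613 to 21657 with both drugs. The ratio of the small to the large sum was then 0.906 ± 0.0125 (SD, n = 9), 0.923 ± 0.0298 (n = 8), 0.863 ± 0.0189 (n = 11) and 0.896 ± 0.0137 (n = 11) in the order of the groups above, so it too was lowest with corticosterone on the control diet. By mean level, 57 of the 84 genes (30 of 49 large, 27 of 35 small) were then lowest in that group and 48 were highest in the corticosterone atglistatin group. The order of the groups was not counted over all genes, so whether these counts are particular to the members was not tested. The genes share the same libraries and are not separate events.

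**Figure D1:**
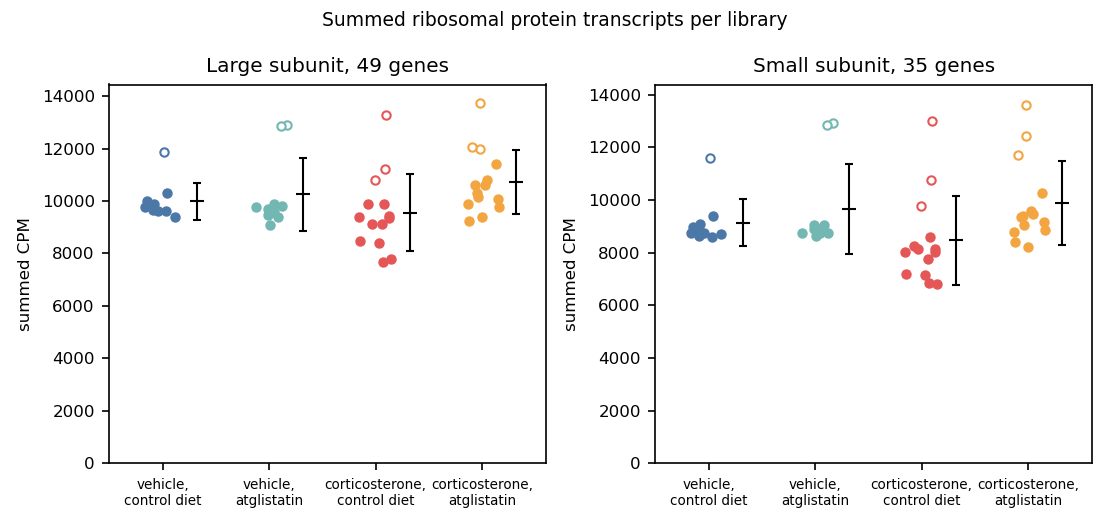
Summed CPM of the 49 large-subunit and 35 small-subunit genes (y axis) in each library of the 4 groups (x axis); points are libraries, open points the 9 high in mitochondrially encoded transcripts, and bars the group mean and SD over all libraries. The open points are the highest or among the highest of each group, and the filled corticosterone control-diet points reach down to 7656 (large) and 6822 (small) CPM.

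On the control diet, corticosterone lowered 13 of the 84 genes and raised 3. Those lowered include the stalk proteins Rplp1 and Rplp2, which draw elongation factors to the ribosome, and Rpl38, Rpl36, Rpl23a, Rps26 and Rps29, while Rpl15, Rps6 and Rpl36al rose. Rpl38, which mouse embryos need to translate some Hox mRNAs, had a lowest, median and highest level of 187, 212 and 251 CPM with vehicle and 138, 154 and 253 with corticosterone. The groups overlap, but 12 of the 14 corticosterone libraries lie below the vehicle mean. Its level fell by 0.35 on the log2 scale (SE 0.09, edgeR adjusted p = 0.00151, 1.27-fold), and by 0.46 without the 9 libraries (adjusted p = 2.43e-09). Rps29, a small-subunit protein mutated in some cases of Diamond-Blackfan anaemia, went from 464, 500 and 555 CPM to 340, 419 and 498, with all 14 corticosterone libraries below the vehicle mean (log2 -0.26 ± 0.05 SE, adjusted p = 0.000118). Rpl23a, near the exit of the tunnel through which the new protein leaves, went from 405, 421 and 463 CPM to 322, 363 and 448 (-0.21 ± 0.05, adjusted p = 0.000669). Rps26, which lines the mRNA exit channel, had 717, 837 and 959 CPM with vehicle and 623, 709 and 836 with corticosterone, again with all 14 below the vehicle mean (-0.22 ± 0.06, adjusted p = 0.00206). For Rps29 and Rps26 the highest level of every group lies outside the 9 libraries.

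The remaining genes that fell on the control diet changed by less. They are Rpl36 (-0.26), Rps9 (-0.23), Rps20 (-0.22), Rpl36a, Rplp2 (both -0.21), Rplp1 (-0.19), Rpl11 (-0.18) and Rpsa (-0.16), with edgeR adjusted p between 0.0114 and 0.0367. Rps23rg1, a retrogene copied from Rps23, fell from 2.55 ± 0.91 CPM (SD, n = 10) to 0.82 ± 0.369 (n = 14), which is 3.06-fold (log2 -1.62 ± 0.25, adjusted p = 3.9e-07), at a level near 1 CPM. Against this direction, Rpl15, which helps shape the core of the large subunit, rose from 14, 22.3 and 32.5 CPM to 20, 30.8 and 34.4, with 12 of 14 libraries above the vehicle mean (0.38 ± 0.11, adjusted p = 0.00272). Rpl36al, an intronless relative of Rpl36a, had 41.6, 61.4 and 73.3 CPM with vehicle and 64.2, 73.7 and 107 with corticosterone, and all 14 lie above the vehicle mean (0.33 ± 0.09, adjusted p = 0.00241). Rps6, the substrate of the S6 kinases that act below mTORC1, had 4.42, 11.4 and 13.6 CPM with vehicle and 7.46, 14.4 and 19.3 with corticosterone (0.43 ± 0.17, adjusted p = 0.0329). That call was lost without the 9 libraries (adjusted p = 0.0755) and without any of vehicle libraries 01, 10 or 12 or corticosterone libraries 35, 37 or 50 (adjusted p 0.0554 to 0.0963).

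Over all libraries both shares (3.57% and 15.5% of the members) lie below the background of this comparison, in which 22.5% of all 12688 genes tested rose and 21.7% fell. Of the large-subunit genes 2 rose and 7 fell, with a median log2 change of -0.03, and of the small-subunit genes 1 rose and 6 fell, with a median of -0.10, against 0.01 over all genes. Without the 9 libraries 2 members rose and 37 fell (20.8% and 22.4% of all genes), 18 large and 19 small. With the length index 2 rose and 39 fell (23.7% and 23.1%). The lowered share (44% and 46.4% of the members) lies above the background in these fits. The 13 lowered genes were lowered in all 3 fits, and the median over the 84 was -0.05 in the first and -0.14 in each of the others. The count of lowered genes was 4 without the mice labelled diabetic (15.3% of all genes) and 4 without the 6 libraries that hold over 20 CPM of the pancreatic enzyme Cpa1 (19% of all genes). With 1 library left out, Rpsa lost its call without vehicle 15 or 16 or corticosterone 27 (adjusted p 0.0535 to 0.0624) and Rpl11 without vehicle 02 (adjusted p = 0.0544).

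On the atglistatin diet, corticosterone raised 12 of the 84 genes and lowered 1, Rps23rg1 (-0.93 ± 0.24, adjusted p = 0.00207). Rpl15 had 17.4, 21.5 and 34.1 CPM with vehicle and 24.5, 30.3 and 41 with corticosterone, and all 14 corticosterone libraries lie above the vehicle mean (0.41 ± 0.10, edgeR adjusted p = 0.00177). Rpl36al went from 46.3, 57 and 82.2 CPM to 61.2, 73 and 105, also with 14 of 14 above (0.37 ± 0.09, adjusted p = 0.00085). These 2 genes therefore rose on both diets, as did Rps6, with 6.97, 12.1 and 20 CPM against 11.3, 14.7 and 20.9 (0.45 ± 0.17, adjusted p = 0.0275). The latter call was lost without any of vehicle 09, 13 or 14 or corticosterone 24, 26 or 40 (adjusted p 0.0536 to 0.0878). Rps27l, a paralog of Rps27 known as a target of p53, went from 205, 249 and 488 CPM to 286, 351 and 721 (0.50 ± 0.18, adjusted p = 0.0289). Others that rose include Rpl24 (0.36), Rpl10 (0.28), Rpl4 (0.26), Rpl6 and Rpl19 (both 0.24), Rpl7a (0.23) and Rpl37 (0.17), with adjusted p from 0.011 to 0.047. The call of Rpl6 was lost without the 9 libraries (adjusted p = 0.15) and without corticosterone 13, 24 or 26 (adjusted p 0.0508 to 0.076). That of Rpl4 was lost without vehicle 13 (adjusted p = 0.0662). RPL4 lines the exit tunnel and RPL10 is added in the last steps of large-subunit assembly.

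Of the large-subunit genes 9 rose and 0 fell (median log2 0.10), and of the small-subunit genes 3 rose and 1 fell (median 0.03). Over all genes 19% rose and 17.7% fell, so the 12 (14.3% of the members) are a smaller share than the background over all libraries. No large-subunit gene fell by edgeR, where 1 was lower at an unadjusted p under 0.05, and DESeq2 gave 10 higher and 1 lower over both subunits. Without the 9 libraries 19 members (22.6%) rose and 3 fell (15.4% and 18.2% of all genes), with Rpl38 (-0.21, adjusted p = 0.00223) and Rps9 (-0.20, adjusted p = 0.0232) among the lowered. With the length index 9 rose and 10 fell (21% and 19.2%). Of the 12 raised genes 11 passed without the 9 libraries and 8 in all 3 fits. The 12 became 19 without vehicle library 07, 7 without vehicle 09, 5 without vehicle 12 or 14 or corticosterone 40, 6 without corticosterone 13, 4 without corticosterone 24, and 3 without vehicle 13 or corticosterone 26. The call of Rps27l was lost without any of vehicle 08, 12, 13 or 14 or corticosterone 13, 24 or 26 (adjusted p 0.0553 to 0.0924), but it passed without all 9 libraries (0.45, adjusted p = 2.05e-05). No test compared these 12 with the 3 of the control diet as counts. The test of each gene's difference between diets is given with the interaction.

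**Figure D2:**
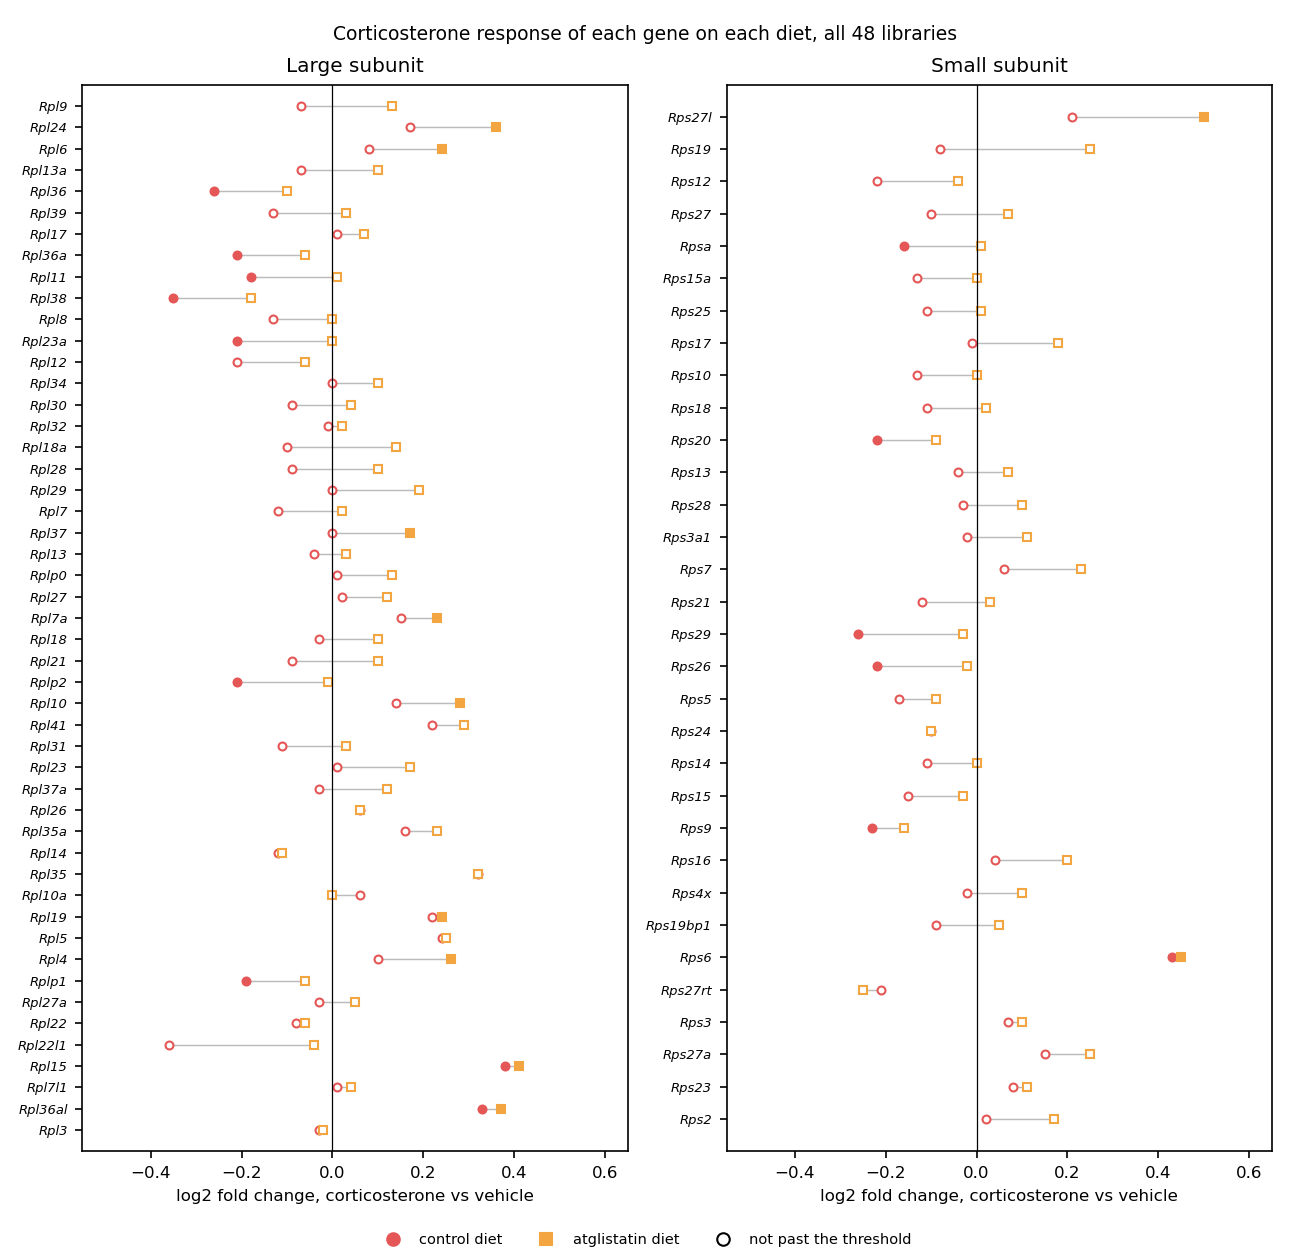
Log2 fold change of corticosterone against vehicle (x axis) for each gene (y axis, ordered by the atglistatin against control-diet difference under corticosterone) on the control diet (circles) and the atglistatin diet (squares), over all 48 libraries; filled symbols passed an adjusted p of 0.05, and Rps23rg1 (-1.62 and -0.93) and genes not reported by name are left out. Many squares lie to the right of their circles (the interaction is positive for 80 of 84 genes), while Rpl15, Rpl36al and Rps6 are filled on both diets.

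Under corticosterone, the atglistatin diet raised 16 of the 84 genes and lowered 0, while 5.19% of all genes rose and 6.47% fell. The raised share (19% of the members) lies above that of all genes, and 81 of the 84 changes were positive. Rps27l had a lowest, median and highest level of 188, 233 and 510 CPM on the control diet and 286, 351 and 721 on atglistatin, and all 14 atglistatin libraries lie above the control-diet mean of 275 CPM. The change was 1.5-fold (log2 0.58 ± 0.17 SE, edgeR adjusted p = 0.0142). The groups no longer overlap without the 9 libraries, with 188 to 278 CPM against 286 to 423 (0.59, adjusted p = 1.62e-07). That separation depends on the choice of libraries, which was made after the data were seen. The control-diet libraries left out (35, 29 and 50) have the highest Rps27l levels of their group (413, 434 and 510 CPM). Rps19, the gene most often mutated in Diamond-Blackfan anaemia and needed to mature the small subunit, had 121, 153 and 280 CPM on the control diet and 176, 215 and 355 on atglistatin (0.51 ± 0.12, adjusted p = 0.00187). Without the 9 it was 121 to 161 against 176 to 251 CPM, again with no overlap (adjusted p = 1.03e-07), where 5.35% of all genes rose and 6.61% fell. Here too the control-diet libraries 35, 29 and 50 are the highest of their group (186, 228 and 280 CPM). Rpsa, also known as the laminin receptor, went from 107, 122 and 170 CPM to 126, 152 and 191 (0.27 ± 0.06, adjusted p = 0.00126).

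Of the other genes raised by atglistatin under corticosterone, several are ones that corticosterone had lowered on the control diet. Rpl23a had 322, 363 and 448 CPM on the control diet and 380, 415 and 499 on atglistatin (0.20 ± 0.05, adjusted p = 0.00295). Rps29 went from 340, 419 and 498 CPM to 445, 475 and 530 (0.19 ± 0.05, adjusted p = 0.00613). Rps26 went from 623, 709 and 836 to 733, 821 and 931 (0.19 ± 0.06, adjusted p = 0.0185). Rpl11 (0.21, adjusted p = 0.0276) and Rpl36a (0.21, adjusted p = 0.0255) complete the list with Rpsa. Since both comparisons use the same corticosterone control-diet mice, such a mirror image is partly built in and is not independent evidence of a reversal. Rps27 (0.29, adjusted p = 0.0477), Rpl6 (0.26, adjusted p = 0.0112), Rpl8 (0.21, adjusted p = 0.0209), Rps28 (0.20, adjusted p = 0.00578), Rpl7 and Rpl37 (both 0.18, adjusted p = 0.0308 and 0.0452) and Rpl18 (0.17, adjusted p = 0.0312) also rose. Rpl15 (0.06, adjusted p = 0.766), Rpl36al (-0.02, adjusted p = 0.919) and Rps6 (0.15, adjusted p = 0.603), which rose with corticosterone on both diets, did not pass here. Several of these calls lie near the threshold and were lost when 1 library was left out. That of Rps27 was lost in 20 of the leave-outs of 1 library (adjusted p 0.0509 to 0.122). That of Rpl11 was lost in 12, without atglistatin 13, 24, 26, 40 or 48 or control-diet 28, 30, 34, 37, 45, 46 or 49 (adjusted p 0.0514 to 0.0824). Rpl36a lost its call without atglistatin 13, 26, 40 or 48 or control-diet 28, 29, 30, 45 or 46 (adjusted p 0.0531 to 0.0744). Rpl8 lost it without atglistatin 13, 26 or 48 or control-diet 34, 35 or 37 (adjusted p 0.0509 to 0.0574).

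Each subunit gave 8 raised genes, with a median log2 change of 0.17 for the large and 0.19 for the small subunit against 0.00 over all genes. By DESeq2 the count was 18 higher and 0 lower, and at an unadjusted p under 0.05 it was 41 higher and 0 lower by edgeR. The share of all genes at that unadjusted threshold is not given here, so the 41 are not set against a background. Without the 9 libraries 45 rose, 22 large and 23 small. With the length index 51 rose, 26 large and 25 small (7.56% of all genes rose and 8.35% fell in that fit). In both fits 0 were lower. All 16 genes passed in all 3 fits. Mitochondrially encoded transcripts were lower on atglistatin also without the 9 libraries, at 107500 ± 13300 CPM (SD, n = 11) against 137800 ± 13500 (n = 11). With their log2 level as a covariate 64 members rose and 0 fell (11.7% and 12.5% of all genes). The count fell to 1 without the mice labelled diabetic (2.45% of all genes), which leaves 5 control-diet mice. It was 10 without corticosterone atglistatin library 13 or control-diet 28, 37, 45 or 46, 9 without atglistatin 48 or control-diet 30, 8 without atglistatin 26, and 32 without control-diet 50. Within the control-diet group without the 9 libraries, the summed level was 14513 to 17572 CPM in the 7 mice labelled diabetic and 17284 to 18460 in the 4 others, against 17613 to 21657 in 11 atglistatin mice, none of them labelled diabetic. The highest of the 4 others, library 36, has a glucose label of 242 (no unit given). Atglistatin library 26, which is labelled diabetic, has 212, so the label does not follow glucose throughout. The diet and the diabetic label cannot be told apart in most of this contrast.

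**Figure D3:**
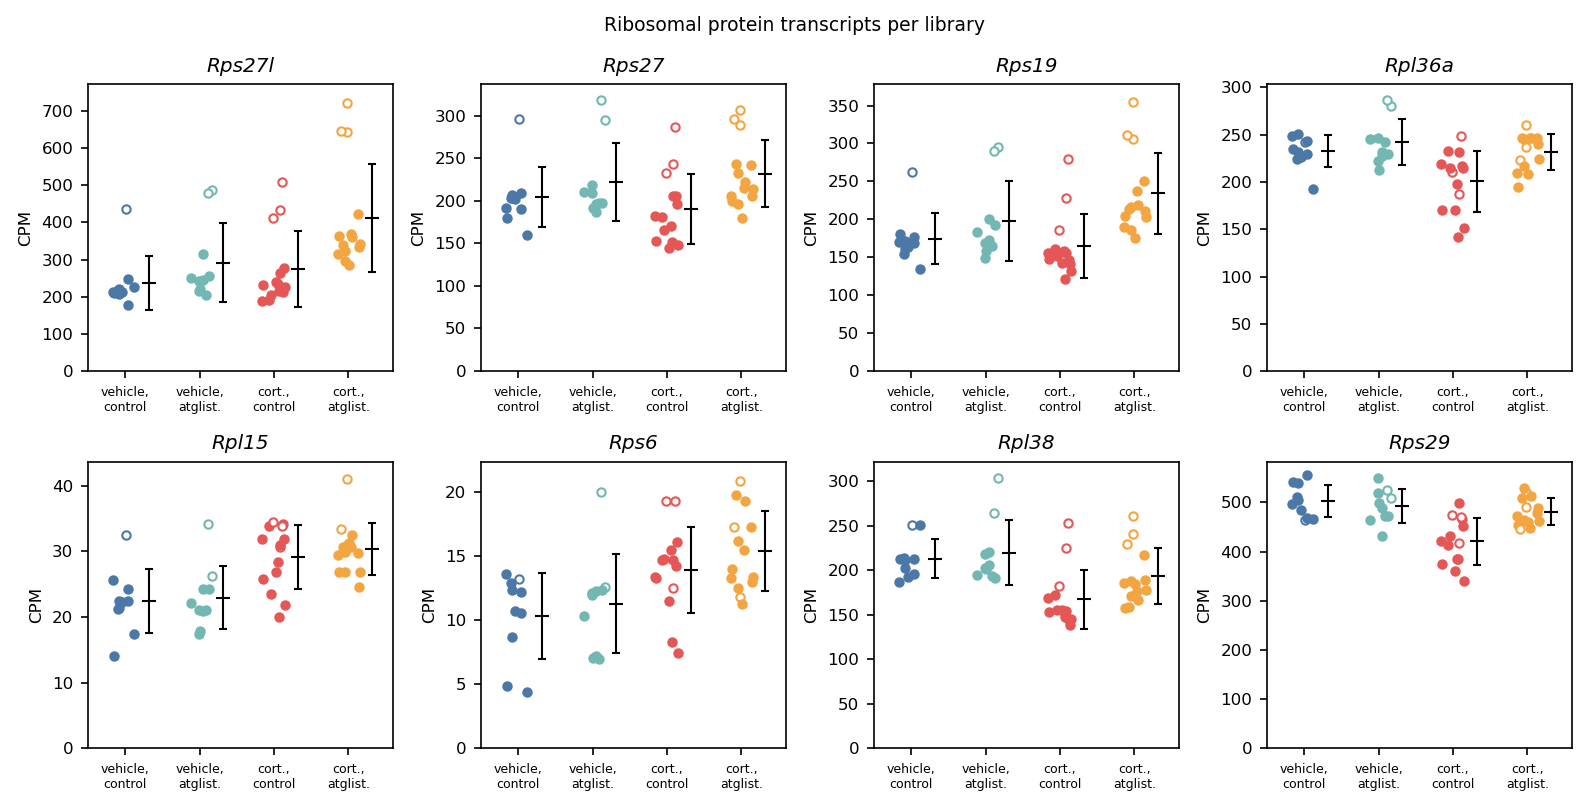
CPM (y axis) of 8 genes in each library of the 4 groups (x axis); open points are the 9 libraries high in mitochondrially encoded transcripts and bars the mean and SD. Filled corticosterone atglistatin points of Rps27l (286 to 423 CPM) and Rps19 (176 to 251) lie above the filled corticosterone control-diet points. The open control-diet points of both genes reach into that range. Rpl15 and Rps6 are higher with corticosterone on both diets, and Rpl38 and Rps29 are lower on the control diet.

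Under vehicle, the atglistatin diet changed 0 of the 84 genes in either direction, where 1.47% of all genes rose and 1.66% fell. At an unadjusted p under 0.05 edgeR gave 0 higher and 0 lower, and DESeq2 gave 0 calls. The median log2 change was 0.05 for the large and 0.08 for the small subunit. With the 9 libraries left out, again with 0 calls (1.88% and 1.89% of all genes), it was -0.03 and 0.01. Rps27l had 179, 216 and 437 CPM on the control diet and 205, 249 and 488 on atglistatin (0.30 ± 0.20, adjusted p = 0.481). With the length index as a covariate it was the 1 member called (0.34, adjusted p = 0.00786; 2.44% of all genes rose and 3.28% fell).

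The interaction asks whether the effect of corticosterone differs between the diets, and no member passed it over all libraries, where 0.701% of all genes were called higher and 0.725% lower. DESeq2 and limma voom also gave 0, and at an unadjusted p under 0.05 edgeR gave 4 higher and 0 lower. The interaction was positive for 80 of the 84 genes, with a median log2 value of 0.14 for the large and 0.13 for the small subunit against 0.00 over all genes. In the fit without the 9 libraries 7 genes passed, all higher with both drugs than the separate effects add up to (0.994% of all genes were higher and 1.3% lower). These are Rps19 (0.43, adjusted p = 0.00746), Rpl23a (0.24, adjusted p = 0.0211), Rpl9 (0.35, adjusted p = 0.0313), Rps21 (0.26, adjusted p = 0.0351), Rpl11 (0.29, adjusted p = 0.0365), Rps27l (0.40, adjusted p = 0.0375) and Rps10 (0.25, adjusted p = 0.0474). With the length index Rps19 and Rpl23a passed (adjusted p = 0.0333 and 0.0353), where 1.09% of all genes were called in each direction.

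**Figure D4:**
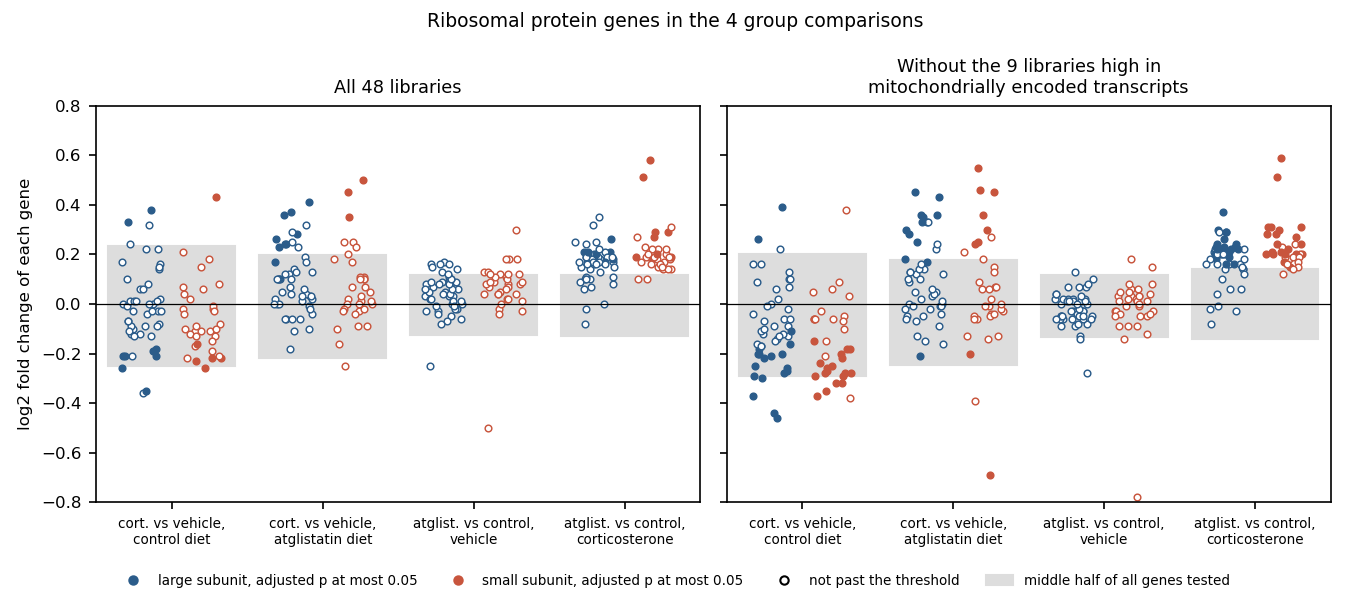
Log2 fold change of each gene (y axis) in the 4 group comparisons (x axis), large subunit left (blue) and small subunit right (red), over all 48 libraries and without the 9; filled points passed an adjusted p of 0.05 and grey bars span the lower to the upper quartile of all genes tested. Values below -0.8 (Rps23rg1) are left out; under corticosterone the atglistatin points centre at 0.17 and 0.19, above the grey bars of both panels, while under vehicle they centre at 0.05 and 0.08.

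Paralog pairs are set side by side here, with no test of the difference between them. Rps27l rose 1.5-fold with atglistatin under corticosterone where Rps27 rose 1.22-fold, with 145, 182 and 287 CPM on the control diet and 180, 219 and 306 on atglistatin. The ratio of Rps27l to Rps27 was 1.15 ± 0.172 (SD, n = 10) in vehicle mice fed the control diet, 1.29 ± 0.231 (n = 10) with vehicle on atglistatin, 1.42 ± 0.27 (n = 14) with corticosterone on the control diet and 1.74 ± 0.323 (n = 14) with both drugs. The ratio of Rpl36al to Rpl36a was 0.264 ± 0.0429, 0.24 ± 0.0309, 0.385 ± 0.0518 and 0.324 ± 0.0421 in the same order, and its lowest corticosterone control-diet value (0.322) lies within the vehicle control-diet range, which ends at 0.332. The ratio of Rpl22l1 to Rpl22 was 0.197 ± 0.0293, 0.16 ± 0.0218, 0.161 ± 0.0502 and 0.16 ± 0.0409. Rpl22l1, whose mRNA is known to be repressed by RPL22, had 39.3, 46.8 and 70.2 CPM with vehicle and 20.1, 36.3 and 59.5 with corticosterone on the control diet (-0.36 ± 0.16, adjusted p = 0.0666). It fell without the 9 libraries (-0.44, adjusted p = 0.0172). Rpl3 (near the site of peptide bond formation), Rps4x, Rps3 (at the mRNA entry), Rps27a (made as a fusion with ubiquitin), Rpl5, Rplp0 (the base of the stalk), Rpl13a, Rpl41, Rpl7l1 and Rps19bp1 passed in none of the 5 group tests over all libraries. Of these, Rplp0 (0.23), Rpl13a (0.30) and Rps3 (0.15) rose with atglistatin under corticosterone without the 9 libraries (adjusted p = 0.00202, 0.0103 and 0.0235). Without the 9, Rpl13a also fell with corticosterone on the control diet (-0.20), and Rps27a (0.36), Rpl5 (0.35) and Rpl41 (0.33) rose with it on atglistatin.

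Insulin, whose labels carry no unit, ran from 1.19 to 3.46 and from 0.464 to 2.05 in the vehicle groups. With corticosterone it ran from 9.31 to 39.8 (median 37.8) on the control diet, and on atglistatin from 2.19 to 38 (median 13.8). With the group means removed, 2 of the 84 genes rose with insulin across the 48 mice and 0 fell, where 3.48% of all genes rose and 4.62% fell. Rps27l rose by 0.27 ± 0.07 on the log2 scale per doubling of insulin (edgeR adjusted p = 0.0145) and Rps25 by 0.20 ± 0.06 (adjusted p = 0.0431). The median slope was 0.05 for the large and 0.08 for the small subunit, and 25 members had an unadjusted p under 0.05, all with higher levels at higher insulin. For these 25, too, the share of all genes at that threshold is not given. Within the 14 corticosterone atglistatin mice, the group with the widest insulin range, 83 members were tested and Rps25 alone passed (0.26 ± 0.07, adjusted p = 0.0298; 2.08% of all genes rose and 3.75% fell). Its call was lost without library 24, 26 or 41 (adjusted p = 0.0659, 0.0988 and 0.142). There 5 genes passed without library 18 and 10 without library 23, and DESeq2 called 7. Within the 14 corticosterone control-diet mice 0 passed in either direction by edgeR or DESeq2 (1 higher and 1 lower at an unadjusted p under 0.05; 1.58% and 1.14% of all genes), and 9 of these mice have insulin values of 36 or more.

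These slopes largely went with the 9 libraries. In the corticosterone atglistatin group, libraries 13, 24 and 26 have insulin of 19.5, 32.7 and 38, Rps27l levels of 643, 645 and 721 CPM and summed levels of 24401, 23760 and 27344 CPM. The 3 other mice of that group with insulin above 20, libraries 18, 23 and 17, have Rps27l at 316, 363 and 423 CPM and sums of 18687, 17669 and 21657 CPM. Library 41, with the lowest insulin of 2.19, has Rps27l at 286 CPM and a sum of 17613 CPM. Without the 9 libraries 1 gene rose with insulin and 1 fell within the groups (1.1% and 2.96% of all genes): Rps27l (0.10, adjusted p = 0.0436) and Rpl22l1 (-0.20, adjusted p = 0.0392). The median slopes were then 0.00 for both subunits, and with the length index as a covariate no member rose and Rpl22l1 fell (1.09% and 2.99% of all genes). Without the mice labelled diabetic no member rose with insulin (0.956% of all genes).

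**Figure D5:**
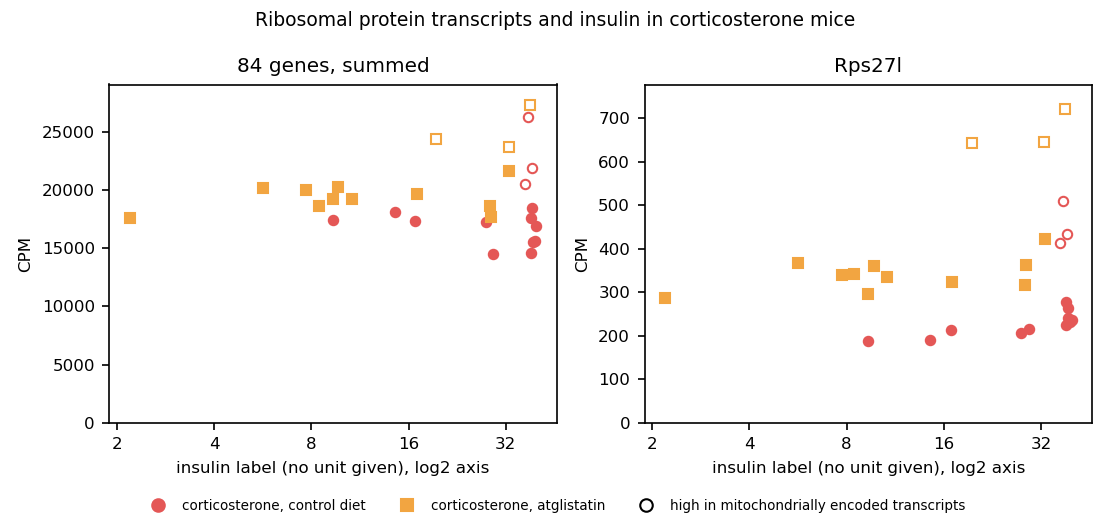
Summed CPM of the 84 genes and CPM of Rps27l (y axes) against the insulin label (x axis, log2, no unit given) in the 28 corticosterone mice; circles are control-diet and squares atglistatin mice, and open symbols are libraries high in mitochondrially encoded transcripts. The open symbols lie at insulin of 19.5 or more and at 413 to 721 CPM of Rps27l, while the filled atglistatin symbols lie between 286 and 423 CPM.

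Other genes of the translation machinery were examined as lists. Rack1, a scaffold on the small subunit whose symbol the rule does not find, had a log2 difference of 0.21 ± 0.08 (edgeR adjusted p = 0.0816) for atglistatin under corticosterone and -0.17 ± 0.09 (adjusted p = 0.111) for corticosterone on the control diet. Neither passed over all libraries, and without the 9 both did (0.23, adjusted p = 0.00205, and -0.29, adjusted p = 3.38e-05), in the direction of the ribosomal protein medians. Of 18 translation factors and other mRNAs listed with a TOP, 4 rose and 1 fell with corticosterone on the control diet (median 0.07), among them the histone chaperone Nap1l1 (0.43 ± 0.08, adjusted p = 7.65e-06) and, lower, the nucleolar Npm1 (-0.22 ± 0.07, adjusted p = 0.0139). On the atglistatin diet 5 rose and 0 fell, and for atglistatin under corticosterone the elongation factor subunit Eef1g alone rose (0.14 ± 0.05, adjusted p = 0.0376; median of the 18 0.05, against 0.18 for the 84 ribosomal protein genes). With the 9 libraries left out, 4 of the 18 rose and 2 fell with corticosterone on the control diet. On atglistatin 6 rose and 0 fell, and 2 rose and 0 fell with atglistatin under corticosterone.

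Of 39 ribosome biogenesis genes 14 rose and 1 fell with corticosterone on the control diet (median 0.16), and 10 rose and 3 fell on atglistatin. Utp20, part of the early processome of the small subunit, rose by 1.00 ± 0.13 on the control diet (adjusted p = 5.58e-09), and atglistatin lowered it under corticosterone (-0.40 ± 0.11, adjusted p = 0.0104), where 1 of the 39 rose, Wdr12 (0.21 ± 0.06, adjusted p = 0.0168). Of 77 mitochondrial ribosomal protein genes tested, 21 rose and 4 fell on the control diet, 28 rose and 2 fell on atglistatin, and 2 rose and 2 fell with atglistatin under corticosterone (median 0.06). With the 9 libraries left out, 16 of 76 rose and 12 fell on the control diet (median 0.00, against 0.06 over all libraries). Then 28 rose and 2 fell on atglistatin, and 6 rose and 1 fell with atglistatin under corticosterone. The biogenesis list then gave 14 higher and 1 lower on the control diet, 8 and 2 on atglistatin, and 1 and 1 with atglistatin under corticosterone. The shares of all genes given above for each comparison are the background of these counts too. Among 18 genes of mTORC1 and translation control, corticosterone raised Ddit4, which encodes an inhibitor of mTORC1 and is a known glucocorticoid target, by 2.33 ± 0.34 on the control diet and 2.22 ± 0.34 on atglistatin (adjusted p = 1.43e-07 and 7.29e-07). It lowered Tsc1 on both diets (-0.61 ± 0.08 and -0.48 ± 0.08), and 0 of the 18 passed for atglistatin under corticosterone by edgeR (3 higher and 1 lower at an unadjusted p under 0.05). Over the list 6 rose and 4 fell with corticosterone on the control diet and 5 rose and 2 fell on atglistatin. Leaving out the 9 libraries gave 4 and 3, and 3 and 2, with 0 for atglistatin under corticosterone.

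Markers of other cells moved with the groups. Summed levels of 11 Kupffer cell and macrophage markers were 250 to 478 CPM and 198 to 378 CPM in the vehicle groups on the control diet and on atglistatin, and 96.6 to 208 and 77.2 to 412 CPM with corticosterone. On this list 10 of the 11 fell with corticosterone on each diet. Of 15 lymphocyte markers listed, 10 had a row in the table and 5 passed the filter on low counts. These 5 summed to 12.7 to 32.2 and 10 to 17.9 CPM with vehicle and to 2.32 to 13 and 1.75 to 6.21 CPM with corticosterone. Between the 2 corticosterone groups 0 of 11 macrophage markers passed (edgeR; 1 higher and 2 lower at an unadjusted p under 0.05). Of the other lists, atglistatin under corticosterone raised 0 markers. It lowered 2 of 5 lymphocyte, 1 of 6 hepatocyte and 1 of 8 endothelial markers. It also lowered 1 of 6 stellate cell, 1 of 5 cholangiocyte and 1 of 5 erythroid markers. Of the pancreatic acinar markers 4 of 6 were called lower. Their sum was 2350 CPM in corticosterone control-diet library 30 and at most 2 CPM in the rest of that group. The group medians were 0.4505 CPM on the control diet and 0.568 on atglistatin, so these calls are not read as an effect of the diet. In the fit without the 9 libraries 3 of 5 erythroid markers fell, with a median log2 change of -0.64. All 5 had an unadjusted p under 0.05, while 0 of 7 acinar markers passed (7 lower at an unadjusted p under 0.05). In bulk tissue, fewer cells of a type and less RNA per cell cannot be told apart, and the part of these cells in the ribosomal protein results was not tested. Erythroid markers (5 genes) summed to 914 to 3750 CPM with corticosterone on the control diet and 452 to 4490 on atglistatin. Without the 9 libraries the highest corticosterone atglistatin sum was 2500 CPM. With insulin within groups, 4 of 5 erythroid markers rose, both over all libraries and without the 9. All 11 macrophage markers fell (10 without the 9) and 6 of 6 acinar markers rose, where 3.48% of all genes rose and 4.62% fell. The highest acinar sum, 5170 CPM, is that of vehicle atglistatin library 06, which has the highest insulin of its group (2.05). Corticosterone control-diet library 30 follows with 2350 CPM, where the medians of these groups were 1.3505 and 0.4505 CPM. The acinar slope without these libraries was not examined. In the test of insulin within groups 1 hepatocyte marker rose and 1 fell, 2 endothelial and 2 stellate cell markers fell, and 0 lymphocyte or cholangiocyte markers passed. Alb, which encodes the albumin made by hepatocytes, was at 49774 CPM or more in each library, and of 6 hepatocyte markers 3 rose and 1 fell with corticosterone on the control diet. Of 8 sinusoidal endothelial markers 4 fell there and 7 on atglistatin. Of 6 stellate cell markers 1 rose and 4 fell there and 3 fell on atglistatin. Of 5 cholangiocyte markers 1 rose and 2 fell there and 1 rose on atglistatin. Pancreatic acinar markers were uneven, with sums of 0.0461 to 5170 CPM, and Cpa1 passed 20 CPM in 3 vehicle control-diet, 2 vehicle atglistatin and 1 corticosterone control-diet libraries.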

How the data were processed

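The authors deposited raw counts per gene for 48 QuantSeq libraries (single 50 bp forward reads, per the labels' protocols) and a table of the same counts divided by 1 size factor per library, deposited as normalized signal. The submitters' processing notes name R 3.6, DESeq2 1.24.0 and the build GRCm38; of the aligner, the strand setting and reads that map to several places, the sources used here say nothing. The second table supplied gene symbols only. Counts were tested with edgeR 4.0.16 (R 4.3.3, quasi-likelihood test, TMM scaling, genes kept by a minimum count of 10 and a minimum total of 15), in 1 fit of the 4 groups with all 48 libraries. Benjamini-Hochberg adjustment ran over all 12688 genes tested and the threshold was an adjusted p of 0.05. Slopes are log2 changes per doubling of insulin, fitted with the groups as terms or within 1 group. Folds and SEs come from the same fits as the p-values, and CPM values describe single libraries. DESeq2 1.42.0, limma 3.58.1 (voom) and other settings were alternatives, and the code was tested on simulated data.

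The members, gene lists and marker lists were chosen with earlier results of these data known. Named are, per comparison, the 4 members of each subunit with the smallest p in each direction among those called, called members that moved against the majority, and a fixed set named whatever its values; of other lists up to 4 genes are named. The remaining called genes, the genes named without the 9 libraries and Rps23, Rps13, Rpl17 and Rpl21 were named after their values were seen. Some genes are counted but not reported by name here. P-values measure the spread between these libraries, each taken as a separate mouse from its own glucose and insulin label. Counts at an unadjusted p under 0.05 stand without the share of all genes at that threshold and are not read as results about the members.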

Additional observations from a re-analysis of the deposited data

Results flagged for a closer look

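In groups of 10 libraries, the vehicle groups, a value was picked out when the gap between the highest or lowest library and its nearest neighbour, as a share of the group's range, passed Dixon's 95% critical value of 0.466. Of 74 such tests 21 passed, and chance flags about 1 in 20 groups. Vehicle control-diet library 02 accounts for 12 of them, always as the highest: the summed ribosomal protein level (0.7), mitochondrially encoded transcripts (0.475), Rps25 (0.852), Rps3 (0.742), Rps27l (0.726), Rpl22 (0.688), Rps19 (0.645), Rps27 (0.638), Rpl41 (0.634), Rpl13a (0.61), Rpl5 (0.578) and Rps27a (0.515). The genes share 1 library, so these are not separate events.

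In vehicle control-diet library 12, Rpl4 (0.594) and Rpl36a (0.533) were lowest and Rpl8 (0.471) was highest, and in library 10 Rpl36al was lowest (0.492). Vehicle atglistatin library 07 was highest for Rps6 (0.565), Rpl36al (0.523) and Rpl15 (0.474), and library 05 for Rps23rg1 (0.516) and Rpl6 (0.469).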

How the results depend on the processing

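Counts of members called depended on the libraries more than on the tool. The share of all genes called also changed between fits. For atglistatin under corticosterone, 5.19% of all genes rose in the main fit and 11.7% with mitochondrial CPM as a covariate. Where no such share is given, as for the other fits with that covariate, whether a changed count is particular to these genes was not tested. For atglistatin under corticosterone, 16 higher became 9 with only the groups compared, 1 without mice labelled diabetic, 25 with insulin as a covariate, 45 without the 9 libraries, 51 with the length index, 64 with mitochondrial CPM as a covariate and 10 without libraries above the Cpa1 limit. It was 8 to 32 when 1 library was left out. For corticosterone on the control diet, 3 higher became 1 without diabetic mice (2 to 4 with 1 library left out). There 13 lower became 4, 37, 39, 34 and 4 without diabetic mice, without the 9, with the length index, with mitochondrial CPM and without the Cpa1 libraries (11 to 19 with 1 library left out). For corticosterone on atglistatin, 12 higher became 6, 19, 34 and 6 without diabetic mice, without the 9, with mitochondrial CPM and without the Cpa1 libraries (3 to 19 with 1 left out). There 1 lower became 3 without diabetic mice, 3 without the 9 and 10 with the length index (1 to 3 with 1 left out). For atglistatin under vehicle, 0 higher became 1 with the length index. For the interaction, 0 higher became 7 without the 9, 2 with the length index and 22 with mitochondrial CPM. With 1 library left out, both stayed at 0 in either direction, as did the lower count for atglistatin under corticosterone. For insulin within groups, 2 higher became 0 without diabetic mice, 1 without the 9 and 0 with the length index, and 0 lower became 1 in each of the last 2. Within corticosterone atglistatin mice, 1 higher became 0 on linear insulin, 7 by DESeq2, 2 with no filter on low counts, and 0 without the diabetic mouse, without the 9 and with the length index (0 to 10 with 1 left out; lower stayed at 0). Within corticosterone control-diet mice, 0 lower became 1 without the 9 and with the length index, and both directions stayed at 0 with 1 library left out. Apart from fewer samples in fits that leave mice out, the cause was not tested.

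Over the named genes and their alternatives, 2639 values stayed on the same side of the threshold, 150 lost the call and 53 gained it. Of the genes called in the main fit 0 reversed direction. Changes of direction in genes not called there were not counted apart. Title numbers 09 to 12 recur in both vehicle groups and 13 and 14 in both atglistatin groups, but same-numbered libraries did not deviate together (correlations -0.108 to 0.0661, and none matched its own number best). With a replicate block over same-numbered libraries only, corticosterone on atglistatin gave 0 higher and 0 lower, from 2 pairs.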
